A study of Mus musculus with 6 samples.

Results

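E0771 mouse mammary carcinoma cells that expressed wild-type Malt1 (Malt1_WT) were compared with E0771 cells that expressed a mutant labelled PD (Malt1_PD), letters that the labels leave unexplained. The comparison used the 2 Malt1_WT and the 2 Malt1_PD libraries, 4 of the 6 RNA sequencing libraries of the series, chosen by their labels alone. The other 2 libraries came from cells with a control vector (Vector), and their values are given for some genes only. All populations had spent 12 h with activated CD8 T cells, 3 effectors for each target, and were then washed, trypsinised, reseeded and lysed 6 h later, so every library here comes from cells after T cell contact. E0771 cells of each population were measured in bulk, so fewer cells of a type and less RNA per cell cannot be told apart. No label says that the 2 libraries of a form came from separate cultures, so the p-values reflect library-to-library spread that may be technical.

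MALT1 is a scaffold and a cysteine protease. With BCL10 and a CARD-containing partner it forms a filament that recruits TRAF6 and switches on NF-kB and AP-1, and its protease activity cleaves regulators such as A20, CYLD, RelB and the RNA-degrading proteins Regnase-1 and Roquin. Cd274 encodes PD-L1, the surface ligand that restrains T cells through PD-1, and its transcription is known to respond to interferon-gamma and NF-kB. The question put to the counts was which transcripts, besides Cd274, differed between cells with one Malt1 form and cells with the other.

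Total counts were 14045390 and 19962014 in Malt1_WT, and 15815122 and 16746124 in Malt1_PD, and a floor of 3 counts per gene equalled between 0.150 and 0.214 CPM (counts scaled to library size) over the 6 libraries. Of 25 T cell markers, 19 had a row of counts, and their sum was 3.35 and 4.04 CPM in the wild-type libraries and 3.92 and 4.64 CPM in the PD libraries. Cd8a and Ifng had 0 counts in all 4 libraries, Cd3d, Cd3g and Trac had at most 4, and Lck, with 18 to 30 counts, held the largest share of the T cell sum. Of 15 mammary epithelial markers, 14 had a row, and their sum was 190 and 180 CPM in Malt1_WT and 189 and 178 in Malt1_PD. Krt8, with 1742 to 2161 counts, and Erbb2, with 624 to 1057, held most of it. Epcam had 112 to 134 counts, Krt18 7 to 12, Krt19 3 to 6 and Cdh1, which encodes E-cadherin, 2 to 6. Fibroblast markers (10 of 11 with a row) summed to 808 and 856 CPM in Malt1_WT and 811 and 809 in Malt1_PD, with Col3a1 at 6247 to 9154 counts. Malt1_PD replicate 1 had 0.625% of its counts in ribosomal-RNA-like transcripts, and the other 3 libraries of the comparison had 0.0841% to 0.168%.

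Cd274 was the 1 gene of 14194 tested that passed the threshold between the forms, and it was higher with wild-type Malt1 (0.00705% of the genes tested, edgeR quasi-likelihood test, Benjamini-Hochberg adjusted p under 0.05). No gene passed in the lower direction (0% of the genes tested). An unadjusted p under 0.05 was reached by 219 genes higher in Malt1_WT (1.54% of the genes tested) and 296 lower (2.09%), together 3.63%, where 5% would correspond to 710 genes. The corresponding count was 151 with DESeq2 and 516 with limma-voom, and both tools called Cd274 alone. After Cd274 the smallest edgeR adjusted p was 0.999. The median log2 fold change over all genes tested was 0.00, with 7150 genes above 0 and 7044 below.

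**Figure D1:**
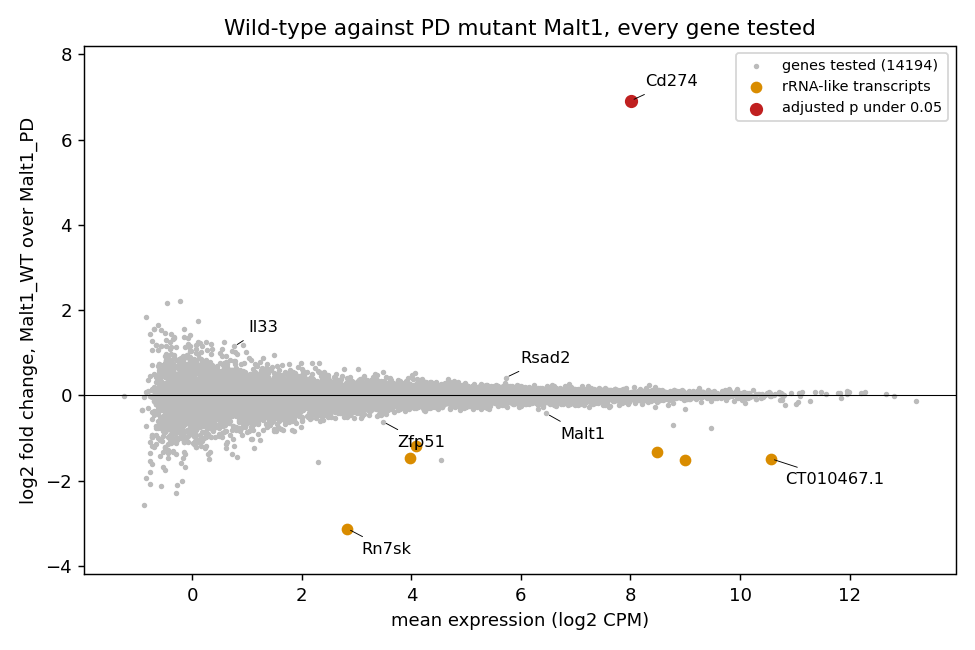
Log2 fold change of Malt1_WT over Malt1_PD against mean expression (log2 CPM) for the 14194 genes tested, 1 point a gene. Cd274 (red) stands at 6.91 on the vertical axis, the ribosomal-RNA-like transcripts (orange) lie below -1, and the spread of the other genes (grey) widens at low expression.

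Intervals bounded the differences of the remaining genes. Among the 9589 genes with a mean of at least 3 on the log2 CPM scale, the unadjusted 95% interval of the log2 fold change lay within 1 of zero for 9579 genes (99.9%) and within 0.5 for 9089 (94.8%). Among the 4605 less abundant genes it lay within 1 for 2197 (47.7%), so a doubling of a weakly expressed transcript was often not detectable at this depth. Of the 9589 abundant genes, 9 differed by at least 1.5-fold between the means of the forms. Cd274 had the highest log2 fold change of them, 7 were lower in Malt1_WT and were ribosomal RNA or counted with it (CT010467.1, mt-Rnr2, Mir6236, Gm23935, Gm24270, Gm15564 and Lars2), and the ninth was Zfp51. The same fold was passed by 46 genes between the 2 Malt1_WT libraries and by 14 between the 2 Malt1_PD libraries. These are differences of single libraries, which spread more than differences of means, so they are not a like measure. Between single libraries of different forms, Cd274 left out, 40, 29, 23 and 8 genes passed it.

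Pairs of single libraries gave a like picture for 9588 abundant genes, Cd274 left out. The SD across genes of the log2 CPM difference was 0.185 between the 2 Malt1_WT libraries and 0.139 between the 2 Malt1_PD libraries. The 4 pairs that crossed the forms gave 0.172, 0.161, 0.155 and 0.137. All lay below the pair of Malt1_WT libraries, and all but the last lay above the pair of Malt1_PD libraries. Malt1_WT replicates differed along gene length (Spearman's rho -0.536 across the 9589 genes, which are not independent replicates), Malt1_PD replicates little (0.0478), and the difference between the forms lay at -0.114.

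**Figure D2:**
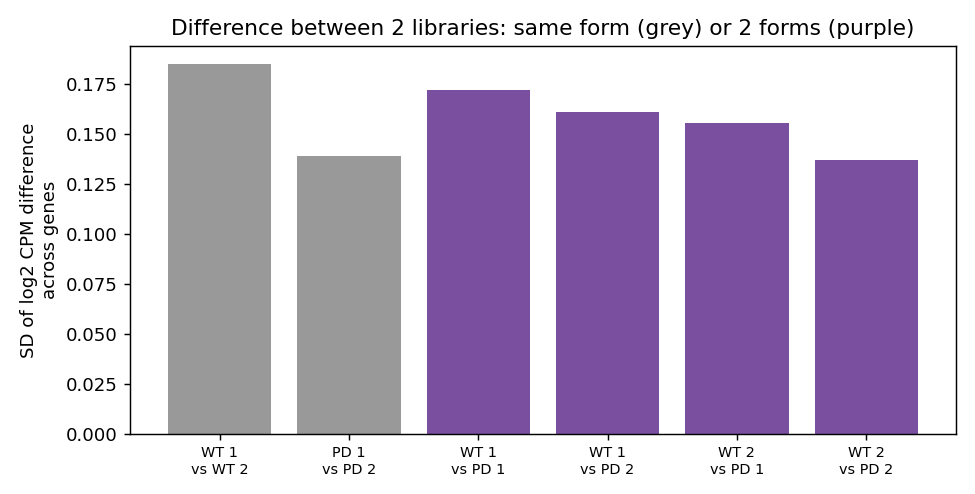
SD across genes of the log2 CPM difference for each pair of the 4 libraries, grey for 2 libraries of one Malt1 form and purple for libraries of different forms. The purple bars, 0.137 to 0.172, do not exceed the Malt1_WT pair at 0.185, and all but the lowest exceed the Malt1_PD pair at 0.139.

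Cd274 was counted at 469 and 545 CPM in Malt1_WT (507 ± 53.9, SD, n = 2) and 4.87 and 3.57 CPM in Malt1_PD (4.22 ± 0.923, n = 2). The Vector libraries held 4.22 and 4.38 CPM, so the PD libraries lay on either side of the Vector values and the wild-type libraries stood far above both groups. In reads, Cd274 had 6585 and 10932 counts with wild-type Malt1 against 77 and 60 with the PD form. The ratio of mean CPM was 120-fold, and the fitted log2 fold change was 6.91 ± 0.13 (SE, 95% interval 6.63 to 7.20, edgeR Benjamini-Hochberg adjusted p = 2.00e-11). Per length, Cd274 stood at 403 and 500 TPM (transcripts per kilobase, scaled to the library) in Malt1_WT, ranks 323 and 248 among all genes of a library. In Malt1_PD it stood at 4.05 and 3.20 TPM, ranks 11517 and 12252. Gene-level counts do not show which copy or transcript form of Cd274 or Malt1 the reads came from.

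Cd274 (ENSMUSG00000016496.7) lies on the plus strand of chromosome 19, from 29367455 to 29388095 in GRCm38, and its start faces that of Plgrkt, a plasminogen receptor gene on the opposite strand. The region is shown because it holds the annotated starts of 2 neighbouring genes, of which Cd274 passed the threshold between the forms and Plgrkt did not. The stretch from RefSeq (GRCm38.p6, chr19:29367188-29367454, plus strand) runs up to the base before the GENCODE start of Cd274, and the 64 capitals mark the bases between the GENCODE starts of Plgrkt and Cd274. The lower-case bases lie within Plgrkt, and RefSeq places the start of Cd274 at 29367438, inside the capitals.
Cd274: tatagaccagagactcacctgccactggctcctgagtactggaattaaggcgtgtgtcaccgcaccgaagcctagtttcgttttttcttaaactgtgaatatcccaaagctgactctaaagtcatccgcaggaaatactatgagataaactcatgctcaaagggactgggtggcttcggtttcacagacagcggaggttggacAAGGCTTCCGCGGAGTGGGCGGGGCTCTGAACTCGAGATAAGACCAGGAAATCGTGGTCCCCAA

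Plgrkt, whose start lies next to that of Cd274, had 12.7 and 11.4 CPM in Malt1_WT against 13.9 and 14.4 in Malt1_PD, a log2 fold change of -0.24 ± 0.13. Its p, 0.0969 before adjustment (edgeR), was the smallest of the 13 other genes tested within 500 kb of Cd274. Jak2, the kinase that carries interferon-gamma signals and lies 115.6 kb before Cd274, had 25.8 and 30.1 CPM against 25.7 and 28.1 (0.06 ± 0.11). The 13 neighbours had a median log2 fold change of 0.00, between -0.32 (Plpp6) and 0.28 (Gm5518), with 7 above 0 and 6 below. These neighbours were taken for their position, not by the rule for named genes. Pdcd1lg2, the PD-L2 gene, was not analysed here.

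**Figure D3:**
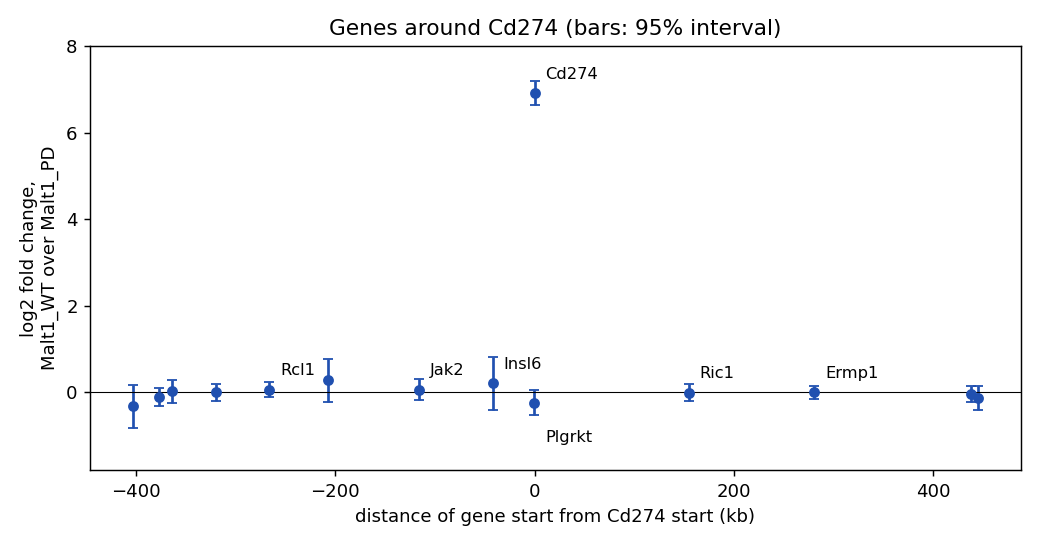
Log2 fold change of Malt1_WT over Malt1_PD, with its 95% interval, for the 14 genes tested within 500 kb of the Cd274 start, placed by the distance of their own start in kb. Cd274 stands at 6.91 and the 13 others lie between -0.32 and 0.28.

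Malt1 itself was counted above the Vector level in both populations. Malt1 (ENSMUSG00000032688.8) had 67.2 and 82.1 CPM with the wild-type form (74.6 ± 10.5), 106 and 95.8 CPM with the PD form (101 ± 6.91) and 23.8 and 31.4 CPM in Vector. Both wild-type libraries were below both PD libraries, and the mean was 1.34-fold higher in the PD population. The log2 fold change was -0.43 ± 0.10 (95% interval -0.63 to -0.22) with an unadjusted p of 0.000761 and an edgeR Benjamini-Hochberg adjusted p of 0.999. That difference passed the threshold without a low-count filter (edgeR adjusted p = 0.000366). The same fit gave Rn7sk, at 24 and 1.72 CPM in the PD libraries, an adjusted p of 1.26e-38, so a call in it did not need like replicates. With 1 of the 4 libraries left out, the log2 fold change of Malt1 ran from -0.58 to -0.29. Cd274 was far lower in the population with the higher mean Malt1 count. Per length, Malt1 stood at 17.8 and 23.3 TPM in Malt1_WT and 27.1 and 26.5 TPM in Malt1_PD.

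Signalling partners of MALT1 and genes of its protease substrates had log2 fold changes close to 0. Of 22 partners tested, none passed the threshold, 13 lay above 0 and 9 below, the median log2 fold change was 0.03, and 21 intervals lay within 1 of zero. Bcl10, which joins MALT1 to the CARD proteins, had 73.8 and 70.3 CPM in Malt1_WT and 63.8 and 71.6 in Malt1_PD (0.09 ± 0.08). Casp8, the death receptor caspase that pairs with MALT1 in lymphocytes, had 31.5 and 35.2 CPM against 40.7 and 37.9 (-0.23 ± 0.09), both wild-type libraries below both PD libraries, as for 16.1% of all genes tested. Of 14 substrate genes, Malt1 among them, none passed, the median was 0.03, and all 14 intervals lay within 1 of zero. Tnfaip3, which encodes A20, an inhibitor of NF-kB cleaved by MALT1, had 34.5 and 32.3 CPM against 31.1 and 28.6 (0.16 ± 0.10). Zc3h12a, which encodes Regnase-1 and was named for that role and not by the rule, had 102 and 112 CPM against 102 and 106 (0.04 ± 0.07).

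NF-kB target genes leaned to higher readings with wild-type Malt1, and none passed the threshold. Of 32 tested, 22 lay above 0 and 10 below, and the median was 0.08. An unadjusted edgeR p under 0.05 was reached by 4 in the higher direction and 1 in the lower. Over all genes tested, 1.54% and 2.09% did so. In 15 both wild-type libraries were above both PD libraries, 46.9% of the list beside 16% of all genes tested. Members of a list share regulators and libraries, so these counts are a description. Il6, an inflammatory cytokine, had 21.6 and 18.3 CPM in Malt1_WT, 14.2 and 16.5 in Malt1_PD and 37.7 and 30.5 in Vector. The groups did not overlap, and the log2 fold change between the forms was 0.37 ± 0.13. Ptgs2, the inducible cyclooxygenase, had 4.41 and 6.53 CPM against 3.48 and 3.63 (0.64 ± 0.24), and Vector 6.87 and 8.64, above both forms. Bcl3, a nuclear IkB-like protein, had 105 and 104 CPM against 93.1 and 91.7 (0.18 ± 0.07). Nfkbia, which encodes the NF-kB inhibitor IkB-alpha and was picked after its values were seen, had 346 and 332 CPM against 312 and 319 (0.10 ± 0.06). Saa3, an acute-phase protein, lay the other way, with 412 and 346 CPM against 441 and 445 (-0.23 ± 0.08), and 396 and 280 in Vector.

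Target mRNAs of Regnase-1 and Roquin, mRNAs that both proteins normally send to decay, were tested for 18 genes. None passed, 13 lay above 0 and 5 below, and the median was 0.07. In 8 (44.4%, beside 16% of all genes tested) both wild-type libraries were above both PD libraries, and in 2 both were below. Il33, an alarmin cytokine, had the highest log2 fold change of the list, with 2.63 and 1.79 CPM in Malt1_WT and 0.886 and 1.07 in Malt1_PD (1.15 ± 0.38, 95% interval 0.33 to 1.96). Vector libraries held 3.15 and 3.20 CPM of Il33, above both forms. Of 28 chemokine and cytokine genes, none passed, 19 lay above 0, and 8 intervals lay within 0.5 of zero, so this group was less tightly bounded than most. Il34, a ligand of the macrophage receptor CSF1R, had 19.1 and 15.7 CPM against 13.3 and 12.8 (0.40 ± 0.14). Lif, a cytokine of the IL-6 family, had 21.8 and 20.4 CPM against 18.7 and 15.2 (0.31 ± 0.13).

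No interferon-gamma response gene other than Cd274 passed the threshold. Cd274 was the 1 member of 32 tested that passed, and the other 31 lay between -0.25 and 0.41 with a median of 0.06. Irf1, an interferon-induced transcription factor that drives Cd274, had 67.5 and 63.4 CPM in Malt1_WT and 67.3 and 55.5 in Malt1_PD (0.09 ± 0.10). Cxcl10, a chemokine that interferon-gamma induces strongly, had 14.5 and 15.0 CPM against 15.1 and 13.4, with an interval of -0.22 to 0.34 around 0.06. Irf1 and Cxcl10 were chosen for their roles after their values were seen. Socs3, a feedback inhibitor of JAK kinases, had 255 and 253 CPM against 224 and 229 (0.17 ± 0.06).

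Type I interferon-stimulated genes held the gene with the smallest p after Cd274, and no member of the list passed. Rsad2, which encodes the antiviral protein viperin, had 61.4 and 58.6 CPM in Malt1_WT (60.0 ± 1.93), 45.4 and 44.6 in Malt1_PD (45.0 ± 0.512) and 57.0 and 55.5 in Vector. The PD libraries lay below both other groups. The log2 fold change between the forms was 0.41 ± 0.08 (95% interval 0.24 to 0.59), with an unadjusted p of 0.000209 and an edgeR Benjamini-Hochberg adjusted p of 0.999. Rsad2 passed the threshold without a low-count filter (edgeR adjusted p = 0.00884). That fit gave CT010467.1, high in Malt1_PD replicate 1 and not in replicate 2, an adjusted p of 6.45e-151, so a call in it did not need like replicates. Without Malt1_WT replicate 1 the log2 fold change of Rsad2 was 0.38. Of 35 genes tested in the list, 24 lay above 0, the median was 0.09, 7 reached an unadjusted p under 0.05, all higher in Malt1_WT (1.54% of all genes tested did so), and in 17 (48.6%, beside 16% of all genes tested) both wild-type libraries were above both PD libraries. Isg15, a ubiquitin-like modifier, had 68.3 and 63.0 CPM against 54.4 and 57.3 (0.23 ± 0.08), and Vector 67.0 and 51.9. Usp18, the protease that removes ISG15, had 40.1 and 44.0 CPM against 35.3 and 36.6 (0.23 ± 0.09). The list's median ranged from 0.05 to 0.12 over 18 alternative settings.

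**Figure D4:**
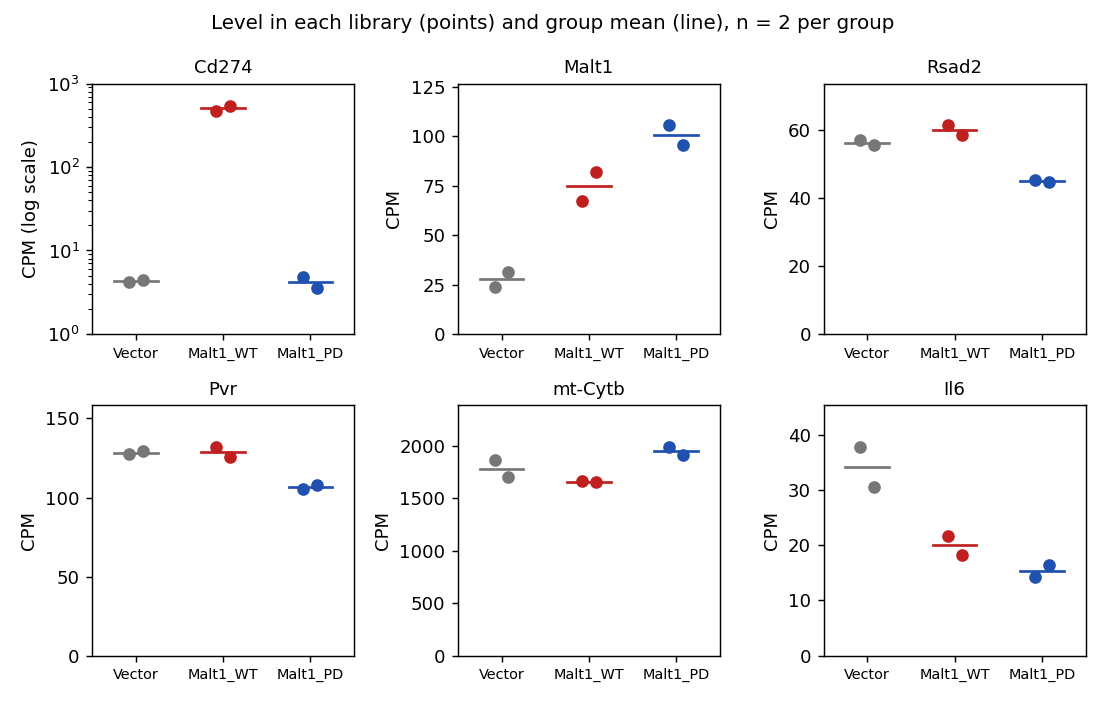
CPM of 6 genes in each of the 6 libraries (points) with the mean of each group (line, n = 2), on a log scale for Cd274 and linear scales from 0 for the others. Cd274 is near 507 CPM in Malt1_WT and near 4.22 in Malt1_PD, while the group means of Rsad2, Pvr, mt-Cytb and Il6 differ by 1.33-fold or less between the forms.

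Genes of MHC class I presentation had small differences. None of 21 passed, the median was 0.05, and 20 intervals lay within 0.5 of zero. In 9 (42.9%, beside 16% of all genes tested) both wild-type libraries were above both PD libraries, and in 1 both were below. H2-K1, a class I heavy chain, had 93.2 and 92.0 CPM in Malt1_WT and 85.5 and 82.4 in Malt1_PD (0.14 ± 0.07). Tapbp, the tapasin that loads peptides, had 183 and 186 CPM against 166 and 171 (0.14 ± 0.06). H2-K1 shares sequence with other class I genes, so its reads are less certain. Among 14 immune checkpoint ligands, Cd274 passed and the other 13 lay between -0.32 and 0.27. In 8 of the 14 (57.1%), Cd274 among them, both wild-type libraries were above both PD libraries, and in 1 both were below. Pvr (CD155), the ligand of TIGIT and DNAM-1, had 132 and 125 CPM in Malt1_WT (129 ± 4.61), 105 and 108 in Malt1_PD (107 ± 1.97) and 127 and 129 in Vector. Its log2 fold change was 0.27 ± 0.07 with an unadjusted p of 0.00178 (edgeR Benjamini-Hochberg adjusted p = 0.999), and 0.23 without Malt1_WT replicate 1. As with Rsad2, the PD libraries were the low ones. Nectin3, a relative of Pvr and its binding partner at cell contacts, lay the other way, with 31.1 and 30.9 CPM against 37.9 and 39.3 (-0.32 ± 0.09) and 34.9 and 35.5 in Vector. Cd47, the signal that holds back phagocytes, had 173 and 167 CPM against 157 and 154 (0.12 ± 0.07).

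Most genes of the growth-signal lists lay above 0 by small steps. Of 23 immediate early and AP-1 genes, 19 lay above 0, the median of 0.11 was the highest of the 35 lists, and in 13 (56.5%, beside 16% of all genes tested) both wild-type libraries were above both PD libraries. None of them passed. Zfp36, an RNA-binding protein that shortens cytokine mRNAs, had 18.0 and 20.0 CPM against 13.8 and 15.7 (0.37 ± 0.13). Jun, an AP-1 subunit, had 185 and 178 CPM against 165 and 156 (0.18 ± 0.07). Of 24 ERK feedback and ETS target genes, 18 lay above 0 with a median of 0.07. In 11 (45.8%, beside 16% of all genes tested) both wild-type libraries were above both PD libraries. Dusp6, the phosphatase that restrains ERK, had 78.6 and 72.3 CPM against 64.5 and 66.3 (0.20 ± 0.08), and Vector 103 and 99.5. Of 16 YAP targets, 12 lay above 0, and the median of 0.04 ran from 0.01 to 0.13 over the 18 alternatives. In 6 (37.5%) both wild-type libraries were above both PD libraries. Cyr61, a secreted matricellular protein, had 54.6 and 59.9 CPM against 45.7 and 48.6 (0.28 ± 0.08).

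Of 30 hypoxia and glycolysis genes, 25 lay above 0, the median was 0.07, and in 17 (56.7%, beside 16% of all genes tested) both wild-type libraries were above both PD libraries. Egln3, an oxygen-sensing prolyl hydroxylase, had 379 and 368 CPM in Malt1_WT, 319 and 330 in Malt1_PD and 316 and 303 in Vector (0.20 ± 0.06 between the forms), the wild-type libraries being the high ones. Pdk1, which keeps pyruvate out of the mitochondria, had 165 and 163 CPM against 146 and 145 (0.17 ± 0.06). Among 23 matrix proteases, Plau, the urokinase, had 12.6 and 11.3 CPM against 8.60 and 8.62 (0.47 ± 0.15), and Mmp9, a gelatinase, had 19.7 and 22.7 CPM against 26.6 and 24.7 (-0.27 ± 0.11). Among 28 collagen and matrix genes the median was 0.05, and Loxl2, a collagen cross-linking enzyme, had 92.7 and 97.6 CPM against 80.8 and 84.2 (0.21 ± 0.07). No gene of these 3 lists passed.

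Mitochondrially encoded mRNAs, which code for subunits of the respiratory chain, leaned the other way. Of 13 tested, 12 lay below 0, the median was -0.14, and in 7 (53.8%) both wild-type libraries were below both PD libraries, beside 16.1% of all genes tested. The summed share of these mRNAs was 1.80% of counts in both Malt1_WT libraries, 2.03% and 1.98% in Malt1_PD, and 2.0% and 1.96% in Vector, so the wild-type libraries were the low ones. mt-Cytb had 1664 and 1656 CPM in Malt1_WT and 1990 and 1918 in Malt1_PD (-0.24 ± 0.05, unadjusted p = 0.000627, edgeR Benjamini-Hochberg adjusted p = 0.999), with 1866 and 1700.0 in Vector. Its edgeR adjusted p was 0.0197 without a low-count filter, in a fit that also called ribosomal-RNA-like transcripts high in 1 PD library only. Without Malt1_WT replicate 1 its log2 fold change was -0.24. mt-Co1, the most abundant of them, had 8970 and 8954 CPM against 9963 and 9849 (-0.14 ± 0.03). The exception, mt-Nd6, had 358 and 402 CPM against 396 and 338 (0.05 ± 0.08), and is the 1 mRNA on the opposite strand of the mitochondrial genome. Malt1_PD replicate 1 had 0.196% of its counts in mitochondrial ribosomal RNA, and the other 5 libraries had 0.0795% to 0.112%. The median of the mRNA list was -0.12 without that library, and it ran from -0.18 to -0.12 over the 18 alternatives. Nuclear genes of the respiratory chain had a median of 0.02 over 30 tested, and none passed.

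Sterol and fatty acid synthesis genes lay below 0 in 22 of 32 cases, with a median of -0.07 and none past the threshold. In 12 of them (37.5%) both wild-type libraries were below both PD libraries, beside 16.1% of all genes tested. Idi1, an isomerase of isoprenoid synthesis, had 28.0 and 28.7 CPM in Malt1_WT and 34.5 and 33.0 in Malt1_PD (-0.25 ± 0.09), and 30.3 and 28.3 in Vector. Hsd17b7, a sterol reductase, had 21.5 and 24.7 CPM against 29.2 and 27.9 (-0.30 ± 0.11). Of 37 proliferation genes, 26 lay below 0, the median was -0.04, in 14 (37.8%, beside 16.1% of all genes tested) both wild-type libraries were below both PD libraries, and all 37 intervals lay within 0.5 of zero. Mki67, the Ki-67 gene, had 151 and 209 CPM in Malt1_WT, 215 and 214 in Malt1_PD and 121 and 257 in Vector, so the spread within a group exceeded the difference between the forms. Acute-phase and innate defence genes had 12 of 19 below 0 and a median of -0.10, and in 10 (52.6%, beside 16.1% of all genes tested) both wild-type libraries were below both PD libraries. None of the 19 passed. Hp, the haemoglobin scavenger haptoglobin, had 186 and 168 CPM against 212 and 214 (-0.27 ± 0.07), and 152 and 123 in Vector. Nos2, the inducible nitric oxide synthase, lay the other way, with 323 and 369 CPM against 296 and 293 (0.23 ± 0.07).

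The remaining lists had medians on both sides of 0. The median was 0.04 for 21 TGF-beta genes, 0.01 for 16 WNT pathway genes and 0.04 for 10 IGF axis genes. It was 0.04 for 18 epithelial and mesenchymal identity genes, 0.03 for 19 lipid uptake and storage genes and -0.07 for 3 MHC class II genes. No gene of these lists was called. Medians were 0.01 for 32 apoptosis and death receptor genes, 0.04 for 28 unfolded protein and integrated stress response genes, -0.01 for 15 heat shock genes, 0.01 for 26 NRF2 genes, 0.06 for 20 p53 targets, 0.07 for 9 prostaglandin synthesis genes and -0.09 for 12 replication-dependent histone genes, with no call in any of them. Of 38 cytosolic ribosomal protein genes, 33 lay above 0 with a median of 0.03, which ran from -0.08 to 0.14 over the 18 alternatives. In 1 of the 38 (2.63%, beside 16% of all genes tested) both wild-type libraries were above both PD libraries. Cdkn1a, the p21 cell cycle inhibitor and a p53 target, had 303 and 268 CPM in Malt1_WT and 249 and 248 in Malt1_PD (0.20 ± 0.07), and 284 and 247 in Vector. Plin2, the coat protein of lipid droplets, had 124 and 114 CPM against 102 and 103 (0.21 ± 0.07). Over the 35 lists, 27 medians lay above 0 and 8 below, and 34 were less than 0.15 in size. Some lists share members, such as Il6 and Ptgs2, and all rest on the same libraries, so this tally is a description.

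**Figure D5:**
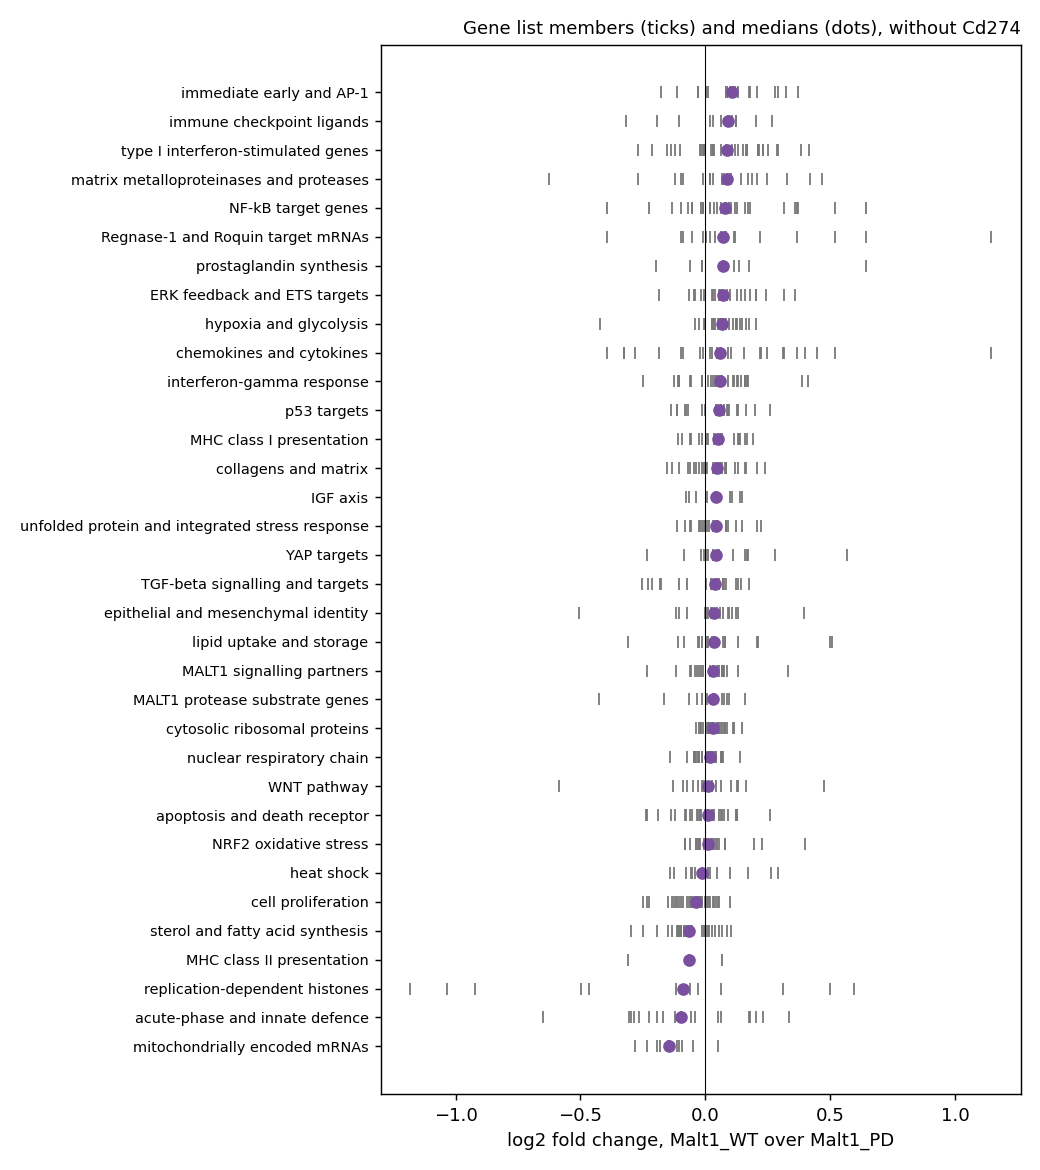
Log2 fold change of Malt1_WT over Malt1_PD for the tested members (ticks) and the median (dots) of 34 gene lists, Cd274 and the ribosomal-RNA-like list left out. The medians run from -0.14 for mitochondrially encoded mRNAs to 0.11 for immediate early and AP-1 genes.

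Ribosomal-RNA-like and short structural RNAs were the list with the median farthest from 0, and that median rested on 1 library. Of 6 tested, all 6 lay below 0 with a median of -1.48. CT010467.1, annotated as ribosomal RNA, had 1037 and 549 CPM in Malt1_WT and 3931 and 515 in Malt1_PD. Rn7sk, the 7SK RNA that holds back transcription elongation, had 1.85 and 1.15 CPM against 24 and 1.72 (-3.13 ± 0.86). Malt1_PD replicate 1 was the high library for both, and the other PD library lay among or near the wild-type values. Without Malt1_PD replicate 1 the list's median was 0.56. Lars2, a mitochondrial leucyl-tRNA synthetase gene placed in this list, had 264 and 144 CPM against 882 and 145 (-1.34 ± 0.55).

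Among genes outside the lists, none passed, and those with the smallest p differed by modest amounts. Dolk, a dolichol kinase of protein glycosylation, had 20.8 and 18.2 CPM in Malt1_WT and 13.1 and 14.0 in Malt1_PD (0.52 ± 0.13). Zfp51, a zinc finger gene, had 7.97 and 9.32 CPM against 14.0 and 12.8 (-0.62 ± 0.15), with 10.8 and 8.75 in Vector, the PD libraries being the high ones. Dek, a chromatin protein, had 131 and 143 CPM against 165 and 166 (-0.27 ± 0.07), and its exons overlap those of Kdm1b on the other strand, which makes its count less certain. No gene switched on or off beyond the lowest counts. Of all 28063 genes, 21 had 0 counts in both libraries of one form and at least 10 in the other, and the highest such sum was 15 counts (Gm44916, absent from Malt1_WT), while Stmn4 had 13 counts in Malt1_WT and 0 in Malt1_PD.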

How the data were processed

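Per the labels' protocols, libraries were directional and paired, with reads of 150 bases. The authors deposited whole-number gene counts, made, per the submitters' processing notes, by STAR 2.7.3a and featureCounts 1.6.3 on GRCm38.p6 after Trim Galore 0.6.0. Neither annotation release nor strand setting is given in the sources used here, and overlapping genes and near-identical copies are less certain. Besides Dek, exons of Bcl3, Usp18, Il34, Zfp36, Jun, Idi1 and Cdkn1a overlap a gene on the other strand, and those of Tapbp and Loxl2 a gene on the same strand. Gene lengths deposited beside the counts gave TPM, and 6 further columns of per-sample values were not used here. Of 28063 identifiers, 28056 matched GENCODE M21, and 25 symbols that had turned into dates were restored. Genes were kept by filterByExpr, and the 4 libraries of the comparison entered edgeR 4.0.16 (R 4.3.3; TMM, glmQLFit, glmQLFTest), which left 2 residual degrees of freedom and a coefficient of variation of 6.63%. Benjamini-Hochberg adjustment covered 14194 genes. Printed CPM use TMM factors over the 6 libraries. Fold changes are log2, Malt1_WT over Malt1_PD, with their SE, and intervals are 95%, unadjusted. Intervals and floors cover counting error and replicate spread only as far as 2 libraries show them. The replicate libraries were not duplicates: chi-square per degree of freedom was 7.37 in Malt1_WT and 6.70 in Malt1_PD.

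The comparison, the 35 gene lists and the tests were chosen with earlier results of these data known. Named genes were Malt1 and Cd274, then called genes with the largest change (up to 15 each way), filled to 8 each way by smallest p where fewer were called (log2 CPM 1 or more on average, forms not overlapping, predicted symbols skipped), and the 4 smallest p of every list, not all of which are printed. Alternatives were DESeq2 1.42.0, its size factors in edgeR, limma-voom (limma 3.58.1), no low-count filter, each library left out in turn, a replicate block, all 6 libraries in 1 fit, a fold minimum of 2, ribosomal-RNA-like transcripts removed and the gene-length trend removed. Scripts were tested on simulated data.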

Additional observations from a re-analysis of the deposited data

How the results depend on the processing

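Cd274 stayed past the threshold in all 18 alternatives, with log2 fold changes from 6.70 to 7.25 and edgeR, DESeq2 or limma adjusted p of at most 0.00318. Without a low-count filter, 2 genes were called higher in Malt1_WT (Cd274 and Rsad2) and 14 lower, Malt1 among them at -0.42. CT010467.1, high in Malt1_PD replicate 1 and not in replicate 2, was also among the 14 (edgeR adjusted p = 6.45e-151). A call in that fit therefore did not need like replicates. With the replicate number as a block, 1 gene was called higher and 1 lower (Rn7sk), and same-numbered Malt1_WT and Malt1_PD libraries did not deviate together (correlation 0.0314 across genes), so the numbers were not taken to pair them. Vector and Malt1_WT replicates did (0.676), and Vector and Malt1_PD did not (-0.0114). Leaving out 1 library from the 4 gave 1 to 377 genes higher and 0 to 526 lower, and Malt1 values from -0.58 to -0.29. The counts were 198 higher and 146 lower without Malt1_WT replicate 1, 377 and 526 without Malt1_WT replicate 2, 3 and 0 without Malt1_PD replicate 1, and 1 and 14 without Malt1_PD replicate 2. Of the 136 named genes other than Cd274, 7 were among the 16 genes called without a low-count filter. Named genes were mostly picked by p in these same 4 libraries, so calls of them in any of these fits are no further support. In the fits with 1 library left out, the lone library of a form is assumed to vary like the remaining pair, which alone sets the spread. With the Vector libraries added to set it, an alternative chosen after seeing the data, each of these gave 1 and 0. Leaving out both replicate 1 libraries in the fit of 6, and the length trend removed in that fit, were also added after seeing the data and gave 1 and 0. DESeq2, its size factors, limma-voom, all 6 libraries in 1 fit, the fold minimum, removal of ribosomal-RNA-like transcripts and removal of the length trend gave 1 and 0. Malt1 was below 0 in all 18 alternatives (-0.58 to -0.22) and past the threshold in 3. Of the 35 list medians, 19 kept their sign in every alternative run and 16 did not, among them apoptosis, ribosomal proteins and the nuclear respiratory chain. With 2 libraries a form, depth limits what can be said of the 4605 weakly expressed genes.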
